A study of Homo sapiens with 6 samples.

Results

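The genes of 10 secreted cytokines were examined in MDA-MB-231, a line of human triple-negative breast cancer cells: the colony-stimulating factor genes CSF1, CSF2 and CSF3, the interleukin genes IL7, IL15, IL18, IL1A, IL1B and IL33, and TSLP. They were taken by symbol from a table of 26255 genes, all 10 were found, and they were selected on the FPKM values of this same contrast, in which CSF2 was lower and IL7 higher in the cells with a hairpin against GPR81. Their values are therefore given below as a description, and no p-value is given for them. RNA was sequenced from cells infected with lentivirus carrying either a control hairpin (shNT, 3 libraries) or a hairpin against GPR81 (shGPR81, 3 libraries), and in both groups infected cells had been selected with puromycin. GPR81 is a receptor for lactate, encoded by HCAR1. The labels do not say which of the study's hairpins the sequenced cells carried, or whether the libraries of a group came from separate cultures, so the p-values measure only the spread between these libraries, which may be technical. Differences between the infected cell populations and effects of the hairpin cannot be told apart in this design. In RNA from whole cultures, fewer cells of a kind and less RNA per cell cannot be told apart either.

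Colony-stimulating factors are named for the blood cell colonies they raise from bone marrow progenitors. CSF1 (M-CSF) drives monocytes, macrophages and osteoclasts through the receptor CSF1R, CSF2 (GM-CSF) acts on granulocytes and macrophages through a receptor made of CSF2RA and CSF2RB, and CSF3 (G-CSF) drives neutrophils through CSF3R. IL7, IL15 and TSLP signal through receptor chains that use JAK kinases and STAT factors, and they are known for their part in lymphocyte survival and, for TSLP, allergic inflammation. IL1A, IL1B, IL18 and IL33 belong to the IL1 family, are mostly made as precursors without a signal peptide, and act through receptors that recruit MYD88 and activate NF-kB. Breast cancer cells that make such factors are known to act on myeloid cells and osteoclasts nearby. Messenger RNA of several of these cytokines is short-lived, because proteins bind AU-rich stretches of its 3′ untranslated region (3′ UTR).

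CSF2 holds the densest such stretch of the 10 genes. In the longest annotated 3′ UTR of each gene (GENCODE on GRCh37), the pentamer ATTTA was counted on the transcript strand, overlaps included. The following windows of 30 bases are those with the most pentamers in the 4 genes that have at least 3 in a window. They are shown because CSF2 stands apart in them from the other cytokine genes, and capitals mark the pentamers. The pentamer was chosen after the data, with the lower CSF2 values, had been seen, so it is no independent feature.
CSF2: aaatATTTATTTATTTATTTATTTAagttc
IL1B: gcttccctATTTATTTATTTAtttgtttgt
CSF3: atgtATTTAtctctATTTAatATTTAtgtc
IL1A: ATTTAtatatgtATTTAtaaatatATTTAa

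The CSF2 window lies at chr5:131411770-131411799 on the plus strand and holds 5 overlapping pentamers. The others lie at chr2:113587571-113587600 on the minus strand (IL1B), chr17:38173232-38173261 on the plus strand (CSF3) and chr2:113532000-113532029 on the minus strand (IL1A), all in the 3′ UTR, with 3 pentamers each. Of the 12015 tested genes with an annotated 3′ UTR, 0.25% had a window with at least 5 pentamers and 3.5% one with at least 3. Over its 318 bases the CSF2 3′ UTR held 8 pentamers, or 25.2 per kb, where the median of the tested genes was 1.70 per kb. The nonamer ATTTATTTA, found in 8.21% of these genes, occurred 4 times in CSF2, 2 times in IL1B and in none of the other cytokine genes. CSF1 had at most 2 pentamers in a window, IL7, IL15, IL33 and TSLP 1, and the 343 bases of the IL18 3′ UTR had 0. CSF2, the gene with the most, was lower in the shGPR81 libraries, while IL1A, IL1B and CSF3 had overlapping groups (below). RNA decay was not measured.

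**Figure D1:**
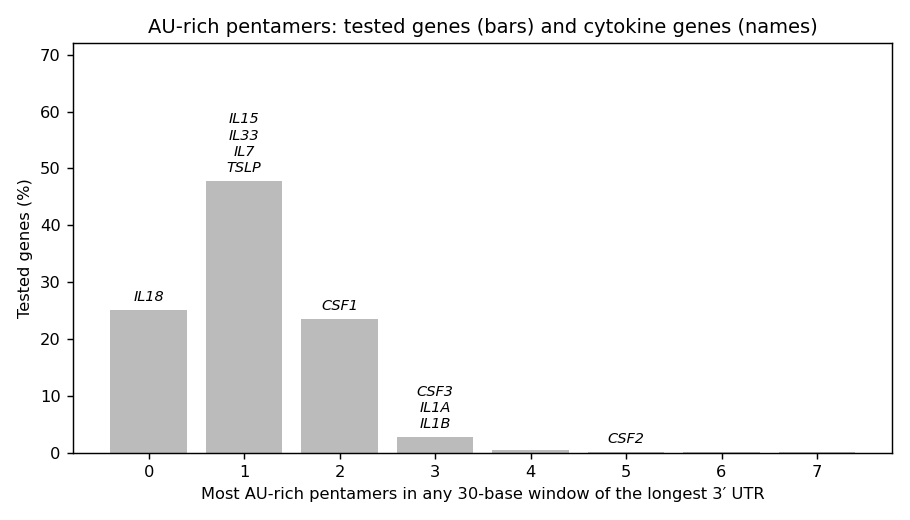
AU-rich pentamers in the 3′ UTR. The horizontal axis gives the largest number of pentamers in any window of 30 bases of a gene's longest 3′ UTR, the bars give the percentage of 12015 tested genes with that number, and the names above them place the 10 cytokine genes. CSF2 stands at 5, where 0.141% of the tested genes stand, and IL18 at 0.

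The sequence before the CSF2 start is shown as the promoter of the member that differed most between the groups. It is the RefSeq window of 300 bases, 250 before the start and 50 after it (GRCh38.p14, chr5:132073539-132073838, plus strand), with capitals for the words found by a search for 6 short motifs on both strands.
CSF2: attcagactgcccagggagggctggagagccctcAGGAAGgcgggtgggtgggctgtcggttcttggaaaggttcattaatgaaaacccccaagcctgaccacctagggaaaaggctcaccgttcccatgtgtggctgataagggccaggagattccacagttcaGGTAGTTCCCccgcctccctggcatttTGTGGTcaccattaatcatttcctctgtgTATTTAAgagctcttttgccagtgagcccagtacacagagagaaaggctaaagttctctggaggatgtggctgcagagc

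From its 5′ end the window held the ETS-like word AGGAAG at base 35, a word of the NF-kB-like form (GGG, 5 bases of any kind, CC) on the minus strand at base 166 (GGTAGTTCCC), the RUNX word TGTGGT at base 193 and the TATA-like word TATTTAA at base 222. None of these words overlapped another. They occur in 33.65%, 58.67%, 13.07% and 4.52% of the 35116 promoter windows of the table, so the first pair is common. The AP-1 form TGANTCA (7.71% of windows) and the CRE core TGACG (24.55%) were not among the letters of this window. The table holds promoter windows for 5 of the 10 genes: CSF2, IL1A, IL1B, TSLP and IL33. Both windows of IL1A, which overlap, held 2 AP-1 words and 1 CRE core, and the window of IL1B held none of the 6 motifs. A match is a word in the sequence and not a measured binding site.

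Expression values were FPKM (fragments scaled to transcript length and to mapped reads), which may be compared between genes. Comparison between libraries assumes that their make-up is alike, and MIR6723 alone made up between 28.1% and 36.2% of a column sum. That is a share of summed FPKM, which is per transcript length, and not a share of reads. Depth is not given with the FPKM values. Relative depths were taken from the commonest ratio between libraries among genes of low FPKM, and they lay within a factor of 1.07. After scaling by these depths, the values of the 6 libraries were whole multiples of a step in 5940 of 15931 genes. Read numbers given for a gene are the lowest whole numbers that fit its values, and their 95% Clopper-Pearson intervals cover counting error only. Fold changes are on the scale of log2(FPKM + 0.1), shGPR81 minus shNT, from limma over 14349 genes that reached 0.1 FPKM in 3 or more libraries. Calls needed both an adjusted p (Benjamini-Hochberg) below 0.05 and a change of more than 1.5-fold. The targeted gene, HCAR1, was at 0.968, 1.02 and 1.36 FPKM in shNT and at 0.978, 0.891 and 0.396 FPKM in shGPR81. The groups overlapped. Their difference was -0.57 in log2 (SE 0.31), with an adjusted p of 0.38 by limma, and -0.22 without shGPR81 replicate 3. In reads, shNT had 37, 40 and 52 and shGPR81 had 40, 36 and 16, a ratio of 0.677 (95% interval 0.513 to 0.892, counting error only). The paper reported reduced GPR81 in its knockdown lines by RT-qPCR and western blotting, which are other measures than FPKM. Because the libraries of this gene do not separate here, directions below are those of the labels. Of the markers of this line, VIM, CD44, EGFR, KRT18, KRT8 and LGALS1 were all expressed, and ESR1, PGR and CDH1 were listed at 0 in every library, while ERBB2 (10.6 to 12.6 FPKM) and EPCAM (6.16 ± 0.861 FPKM in shNT and 5.60 ± 0.115 FPKM in shGPR81) were not at 0. Of 10 blood cell markers, 6 were listed at 0 in every library, among them CD3E and ITGAM, and CD14 was the highest at 3.38 ± 1.05 FPKM (SD, n = 3) in shNT and 1.49 ± 0.312 FPKM in shGPR81. CD14 was lower in every shGPR81 library than in every shNT library, as were 12.7% of all tested genes. Its log2 fold change was -1.10 (adjusted p = 0.056 from limma), and it was not called.

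Of the 10 cytokine genes, 8 passed the filter on low values. Of these, CSF2 was past both thresholds and lower, as were 1.59% of all tested genes, and IL7 was past both and higher, as were 0.955%, or 2.54% in either direction. Groups were without overlap for CSF2, lower in shGPR81, where 12.7% of all tested genes were, and for CSF1 and IL7, higher in shGPR81, where 12.9% were (25.6% in either direction). Because this contrast chose the genes, these counts are no test of them and nothing is read from them. The median log2 fold change of the 8 genes was 0.05, and that of all tested genes was 0.01.

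Among the colony-stimulating factors, CSF2 was at 8.67, 8.21 and 8.53 FPKM in shNT and at 2.93, 2.85 and 2.97 FPKM in shGPR81. Every shGPR81 library was far below every shNT library, and within each group the libraries lay close together. The means were 8.47 ± 0.233 and 2.92 ± 0.0600 FPKM (SD, n = 3), 2.90-fold lower in shGPR81, and the log2 fold change was -1.51 (SE 0.08). In reads, shNT had 69, 67 and 68 and shGPR81 had 25, 24 and 25. The ratio was 0.344 (Clopper-Pearson interval 0.260 to 0.452, counting error only). Within each group these read numbers differed by less than counting error alone would usually give. The SDs and the SE therefore show the fold as more precise than its read numbers allow. Leaving out each library in turn gave log2 fold changes between -1.53 and -1.49, a range that is narrow for the same reason. In GRCh37 the gene spans 131409482 to 131411863 of chromosome 5, plus strand, and no other annotated gene overlaps it.

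CSF1 was the most abundant of the 10 genes, at 47.1, 54.8 and 54.9 FPKM in shNT and at 65.2, 65.5 and 69.6 FPKM in shGPR81. The groups did not overlap, and the lowest value was that of shNT replicate 1. The means were 52.2 ± 4.47 and 66.8 ± 2.47 FPKM (SD, n = 3), 1.28-fold higher in shGPR81. This is 0.36 in log2 (SE 0.07), and it was 0.28 without shNT replicate 1. It is short of the 1.5-fold change used for calls. CSF1 lies on chromosome 1 from 110452864 to 110473614.

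CSF3 was low, at 0.369, 0.391 and 0.514 FPKM in shNT and at 0.394, 0.347 and 0.270 FPKM in shGPR81. The groups overlapped, and the log2 fold change was -0.26 (SE 0.22), or -0.14 without shNT replicate 3 and -0.15 without shGPR81 replicate 3. It lies on chromosome 17 from 38171614 to 38174066. Within a library, CSF1 was 6.18 ± 0.657 times the level of CSF2 in shNT and 22.9 ± 0.612 times in shGPR81 (mean ± SD of the ratio of FPKM, n = 3), which follows from the CSF2 values that chose the genes.

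**Figure D2:**
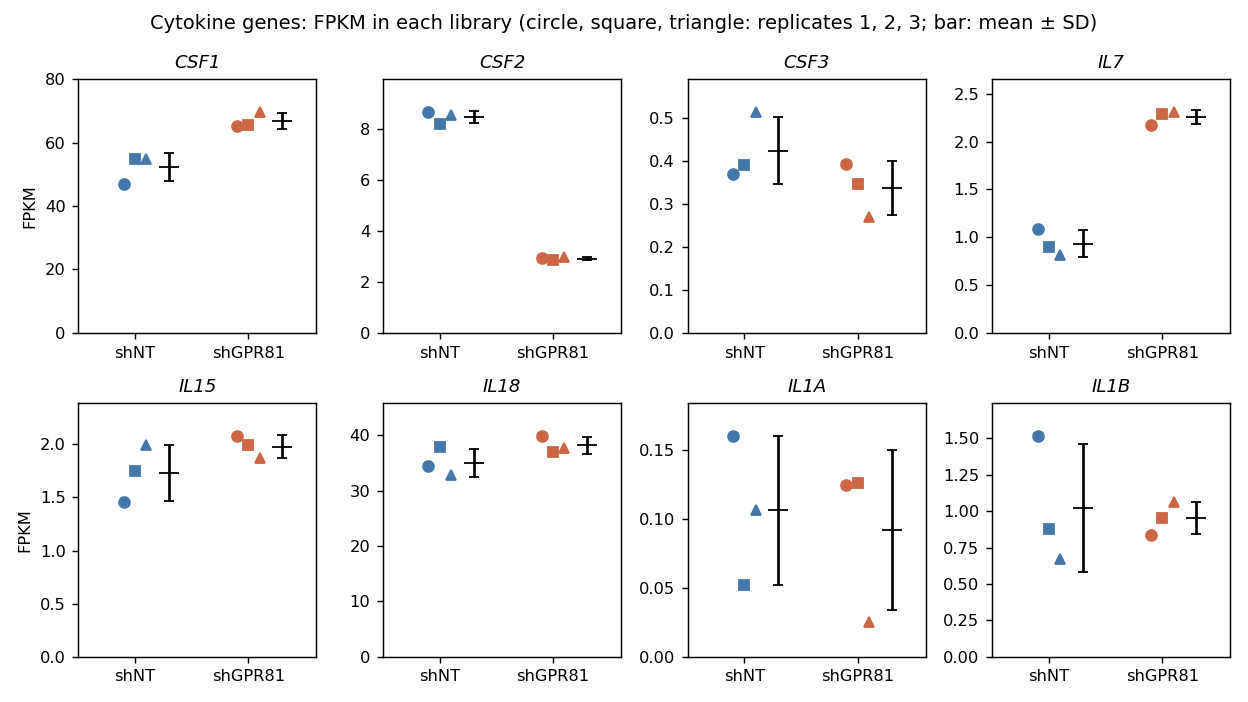
FPKM of the 8 cytokine genes that passed the filter. Each panel is 1 gene with its own linear axis from 0, points are libraries of shNT and shGPR81, and the black mark is the mean with its SD (n = 3). The libraries of CSF2 stand apart with shGPR81 at 2.85 to 2.97 FPKM, those of IL7 and CSF1 stand apart with shGPR81 higher, and the groups of the other 5 genes overlap.

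Among the interleukins that signal through JAK kinases, IL7, which supports the survival of lymphocytes, was at 1.09, 0.901 and 0.814 FPKM in shNT and at 2.17, 2.29 and 2.31 FPKM in shGPR81. The lowest shGPR81 library was above the highest shNT library. The means were 0.934 ± 0.139 and 2.26 ± 0.0736 FPKM (SD, n = 3), 2.42-fold higher in shGPR81, and the log2 fold change was 1.20 (SE 0.14), between 1.11 and 1.30 with each library left out in turn. With a pseudocount of 1 FPKM, near the level of the gene, it was 0.75. IL7 lies on chromosome 8 from 79587978 to 79717758 on the minus strand and overlaps 4 annotated genes, among them ZC2HC1A on the plus strand and C4orf46P3 and THAP12P7 on its own strand. It is not stated whether the reads were counted by strand, and for the genes on its own strand the strand would not tell reads of the overlap apart.

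IL15, a relative of IL2 that supports natural killer cells and memory T cells, was at 1.46, 1.75 and 1.99 FPKM in shNT and at 2.08, 1.99 and 1.87 FPKM in shGPR81. The groups overlapped, with a log2 fold change of 0.19 (SE 0.14), which was 0.08 without shNT replicate 1 and 0.29 without shNT replicate 3. Relative to IL15, IL7 changed its rank. The ratio of IL7 to IL15 was between 0.409 and 0.744 in the shNT libraries and between 1.05 and 1.24 in the shGPR81 libraries. The IL7 values that chose the genes enter this ratio. TSLP, an epithelial cytokine related to IL7, was listed at 0.0987 FPKM in shNT replicate 1 and at 0 in the other libraries, so no fold is given.

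In the IL1 family, IL18 was abundant, at 34.5, 37.8 and 32.8 FPKM in shNT and at 39.9, 36.96 and 37.7 FPKM in shGPR81, with overlapping groups and a log2 fold change of 0.13 (SE 0.07), or 0.08 without shNT replicate 3. IL1B, the main secreted form of interleukin 1, was at 1.52, 0.877 and 0.673 FPKM in shNT and at 0.839, 0.956 and 1.06 FPKM in shGPR81. Its shNT libraries were spread more widely than its shGPR81 libraries and enclosed them. In reads, shNT had 27, 16 and 12 and shGPR81 had 16, 18 and 20, a ratio of 0.932 (95% interval 0.629 to 1.38), and the sign of its log2 fold change turned with the library left out, from -0.26 to 0.27.

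IL1A was near the filter, with 6, 2 and 4 reads in shNT and 5, 5 and 1 reads in shGPR81. The ratio was 0.871 (95% interval 0.348 to 2.16, counting error only), so these few reads leave any ratio inside these bounds possible. IL33, an alarmin of barrier tissues, was listed at 0 in all 6 libraries. IL1A and IL1B are neighbours on chromosome 2, from 113531502 to 113542070 and from 113587328 to 113594393, and IL1B was above IL1A in every library.

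Across genes the order of the mean FPKM in shNT was CSF1, IL18, CSF2, IL15, IL1B, IL7, CSF3, IL1A, TSLP and IL33. The libraries of neighbours in this order overlapped for IL15 and IL1B, for IL1B and IL7, for IL1A and TSLP, and for TSLP and IL33, so these pairs are not ordered beyond their spread. In shGPR81 the order was CSF1, IL18, CSF2, IL7, IL15, IL1B, CSF3 and IL1A, with no overlap between neighbours, and IL33 and TSLP were at 0. CSF2 was above 50.7% of all tested genes in shNT and above 30.9% in shGPR81, CSF1 above 87.2% and 90.2%, and IL7 above 18.2% and 27.5%. CSF2 came after IL18 in both groups, but nearer to IL7 in shGPR81. The ratio of CSF2 to IL7 was 9.19 ± 1.25 in shNT and 1.29 ± 0.0526 in shGPR81 (SD, n = 3). This shift follows from the CSF2 and IL7 values that chose the genes.

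The receptors of these cytokines were examined next. Of 15 receptor chains, 6 were listed at 0 in every library: CSF2RA, CSF2RB, CSF3R, IL18RAP, IL1RL1 and CRLF2. CSF2 and CSF3 thus had no receptor chain with listed RNA, and IL33 and TSLP lacked their specific chains, IL1RL1 and CRLF2. Of the 5 chains tested, 2 fell and 0 rose, where 1.59% and 0.955% of all tested genes were called (limma, Benjamini-Hochberg). The median log2 fold change of the 5 was 0.12. Of the pair that fell, IL1R1 is below a filter of 1 FPKM, and with that filter 1 listed gene was called lower. IL1R1 also passed the filter of 0.1 FPKM through its shNT libraries alone, so nothing is read from its place in this count.

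IL7R, the specific chain of the IL7 receptor, which TSLP also uses, was at 6.85, 6.31 and 7.54 FPKM in shNT and at 3.67, 3.85 and 3.26 FPKM in shGPR81. All shGPR81 libraries were below all shNT libraries, and the receptor chain fell where its ligand was higher. The means were 6.90 ± 0.619 and 3.60 ± 0.305 FPKM (SD, n = 3), 1.92-fold lower, which is -0.92 in log2 (SE 0.10), with an adjusted p of 0.0034 by limma. Tested against the 1.5-fold change itself it did not pass (adjusted p = 0.597 from limma's treat). IL7R exceeded IL7 by 7.52 ± 1.55 times in shNT and by 1.59 ± 0.159 times in shGPR81 (ratio of FPKM, SD, n = 3). The IL7 values that chose the genes enter this ratio too. IL2RG, the chain that pairs with IL7R for IL7, was listed above 0 in 1 library only, shNT replicate 3, at 0.05 FPKM. IL7R lies on chromosome 5 from 35852797 to 35879705.

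IL1R1, the signalling receptor for both IL1A and IL1B, was at 0.897, 0.615 and 0.512 FPKM in shNT, and it fell in shGPR81, at 0.0426, 0.0431 and 0 FPKM. On the log2 scale it fell by 2.58 (SE 0.30) with an adjusted p of 0.0038 by limma, a size that depends on the pseudocount, with -4.46 at 0.01 FPKM and -0.70 at 1 FPKM, called in each. IL1R1 passed the filter of 0.1 FPKM through its shNT libraries alone, so a tested gene with its shGPR81 levels had to differ. An antisense gene, IL1R1-AS1, overlaps it on chromosome 2, where IL1R1 spans 102681004 to 102796334. Its partner chain IL1RAP, at 6.06 ± 0.728 and 6.69 ± 0.523 FPKM (SD, n = 3), had overlapping groups (adjusted p = 0.54 from limma).

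For IL15, the specific chain IL15RA was the most abundant receptor chain, at 11.1 ± 0.921 FPKM in shNT and 12.1 ± 0.0673 FPKM in shGPR81 (SD, n = 3, adjusted p = 0.41 from limma). The signalling chain IL2RB was below the filter and is named here after its values were seen. It stood at 5, 7 and 7 reads in shNT and at 1, 1 and 0 reads in shGPR81, a ratio of 0.100 (95% interval 0.0113 to 0.414, counting error only). CSF1R, the receptor of CSF1, was low, with overlapping groups at 0.924 ± 0.284 and 0.990 ± 0.126 FPKM (adjusted p = 0.83 from limma).

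**Figure D3:**
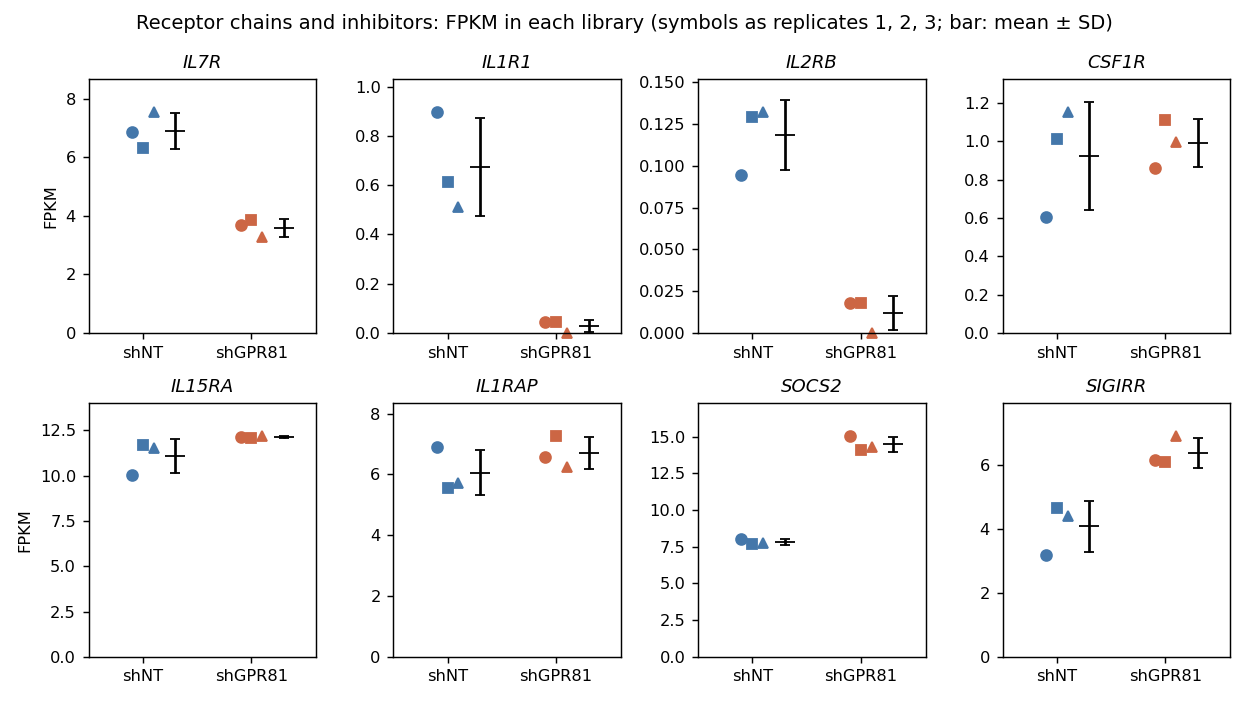
FPKM of 6 receptor chains and of the inhibitors SOCS2 and SIGIRR, drawn as for the cytokine genes, with linear axes from 0 and the mean with its SD (n = 3). IL7R and IL1R1 are lower in every shGPR81 library (3.26 to 3.85 FPKM and 0 to 0.0431 FPKM), SOCS2 is higher (14.1 to 15.1 FPKM), and IL2RB, below the filter, was not tested.

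Below the JAK-coupled receptors, 1 of 19 tested genes rose and 0 fell, beside 0.955% and 1.59% of all tested genes, with a median log2 fold change of -0.03. SOCS2, a feedback inhibitor that STAT5 induces, was at 8.06, 7.66 and 7.78 FPKM in shNT and at 15.1, 14.1 and 14.3 FPKM in shGPR81, without overlap. It was 1.85-fold higher, or 0.88 in log2 (SE 0.06), with an adjusted p of 0.00073 by limma, and 0.165 by treat. An antisense gene, SOCS2-AS1, overlaps it. MCL1 and SH2B3, among the most abundant genes of this list, had log2 fold changes of 0.13 and 0.16, neither of them called. STAT6 had an adjusted p of 0.047 (limma) with a log2 fold change of 0.34, short of the 1.5-fold limit.

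Below the IL1 family receptors, 0 of 23 tested genes of the MYD88 arm were called, beside 2.54% of all tested genes, and 0 had an adjusted p under 0.05 (limma), beside 5.13%. The list held MYD88, the IRAK kinases and the NF-kB subunits, and its log2 fold changes lay between -0.15 and 0.35. IRAK1, RELA and CHUK, the most abundant of them, were at -0.01, 0.05 and -0.11.

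Of the genes that mature or release IL1 family cytokines, 0 of 16 tested were called, beside 2.54% of all tested genes. Of the 16, 12 had a log2 fold change above 0, beside 51.9% of all tested genes, and 7 were higher in every shGPR81 library than in every shNT library, where 12.9% of all tested genes were. Among the 7 is NLRC4, at 0.124, 0.058 and 0.060 FPKM in shNT and 0.173, 0.404 and 0.233 FPKM in shGPR81. It would not have passed the filter of 0.1 FPKM on its shNT libraries, so nothing is read from its place in this count. The calpain genes CAPNS1 and CAPN2, whose protease cuts the IL1A precursor, and S100A13, which takes part in IL1A export, were the most abundant. CAPN2 was at 240 ± 7.45 and 275 ± 6.30 FPKM (SD, n = 3, log2 fold change 0.20, adjusted p = 0.060 from limma). PYCARD, the adaptor of the inflammasome that activates caspase 1, was listed at 0 in every library, and so was CASP5.

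Of 21 related ligands and antagonists, 13 were listed at 0 in all libraries, among them IL3, IL5 and IL2, and 4 were tested, with 0 called, beside 2.54% of all tested genes. SIGIRR, a receptor-like inhibitor of IL1 and IL18 signalling, was at 3.16, 4.65 and 4.39 FPKM in shNT and at 6.13, 6.07 and 6.89 FPKM in shGPR81, without overlap. Its log2 fold change of 0.65 (SE 0.15) had an adjusted p of 0.055 (limma), just over the threshold, and 0.047 when only genes at 1 FPKM or more were tested. With no filter it was 0.094 (limma). Without shNT replicate 1 it was 0.028 (limma), with a log2 fold change of 0.48, short of 1.5-fold. With each other library left out in turn it lay between 0.077 and 0.173 (limma). KITLG (log2 fold change 0.31) and FLT3LG (0.04), growth factors for blood progenitors, were not called.

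Of 30 factors that act on transcription or decay of cytokine RNA, all were tested and 0 were called, beside 2.54% of all tested genes. With an adjusted p under 0.05 but less than a 1.5-fold change, as had 5.13% of all tested genes at any fold, stood the AP-1 genes FOSL1 (log2 fold change 0.36, adjusted p = 0.044 from limma) and JUN (0.34, adjusted p = 0.033 from limma), and ZFP36L1, whose protein binds AU-rich RNA and promotes its decay (0.34, SE 0.05, adjusted p = 0.0085 from limma). ZFP36L1 was at 48.9 ± 1.17 FPKM in shNT and 62.0 ± 1.94 FPKM in shGPR81 (SD, n = 3). Its homologue ZFP36 was at 6.47 ± 0.563 and 8.04 ± 0.279 FPKM (adjusted p = 0.093 from limma), and ZFP36L2 had a log2 fold change of -0.15. HNRNPD and KHSRP, further AU-rich binding proteins and the most abundant genes of the list beside FOSL1, were at -0.08 and 0.05. The adjusted p of FOSL1 was 0.027 without shNT replicate 1 and between 0.056 and 0.159 with each other library left out (limma). JUN and ZFP36L1 are named here after their values were seen.

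**Figure D4:**
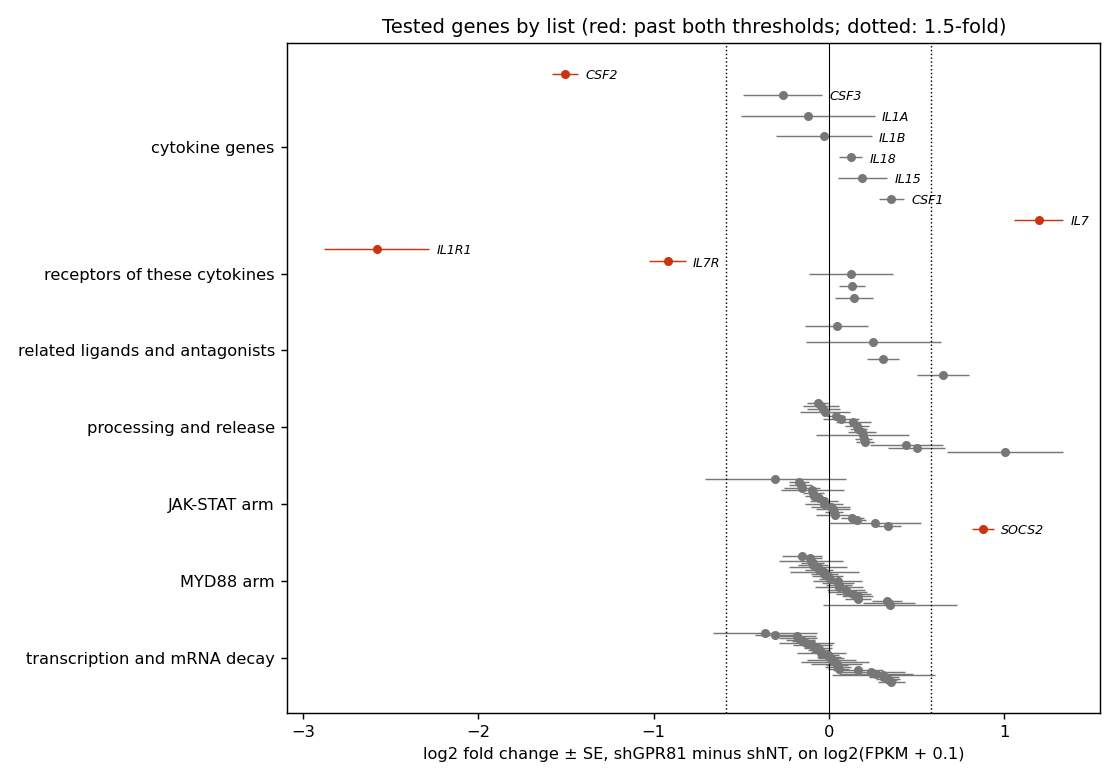
Log2 fold change of each tested gene with its SE, shGPR81 minus shNT on log2(FPKM + 0.1), for the cytokine genes and for 6 lists of related genes. Dotted lines mark a change of 1.5-fold and red points passed both thresholds: CSF2, IL1R1 and IL7R to the left, IL7 and SOCS2 to the right, with all other points grey. IL1R1 passed the filter on low values through its shNT libraries alone.

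Over the 6 lists together, 97 of 129 genes were tested, 2 fell and 1 rose, where 1.59% and 0.955% of all tested genes did. Among those that fell is IL1R1, which passed the filter through its shNT libraries alone. The median log2 fold change was 0.03.

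Neighbours on the chromosome were compared for the 2 genes that differed most. Within 500 kb of CSF2, 14 genes were in the table and 9 were tested, with 0 called, beside 2.54% of all tested genes, and a median log2 fold change of -0.16, beside 0.01. IL3 and IL5, further cytokine genes inside this window, were listed at 0. P4HA2, a collagen prolyl hydroxylase, had the lowest adjusted p of the 9 (log2 fold change -0.50, adjusted p = 0.0038 from limma). Within 500 kb of IL7 only 2 genes were tested, and 1 was called higher, beside 0.955% of all tested genes. PKIA, which encodes an inhibitor of the cAMP-dependent kinase, rose from 3.61, 3.28 and 3.43 FPKM to 5.53, 5.30 and 5.53 FPKM (log2 fold change 0.65, adjusted p = 0.00545 from limma). ZC2HC1A, the overlapping gene, had a log2 fold change of 0.34 (adjusted p = 0.15 from limma). P4HA2, PKIA and ZC2HC1A are named after their values were seen.

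The genes most like CSF2 were sought among the 11672 genes whose mean reached 1 FPKM, by the root mean square difference of log2(FPKM + 0.1) over the 6 libraries after each gene was centred on its mean. They were WASF3 (0.071), PSTPIP2 (0.10), HLA-DRA (0.11), GOLGA7B (0.13) and ICAM1 (0.13). WASF3, a regulator of actin, was at 4.40, 4.22 and 3.91 FPKM in shNT and at 1.49, 1.48 and 1.39 FPKM in shGPR81, in nearly the same proportion as CSF2. The genes most like IL7 were SLAIN1 (0.079), LOC101927229 (0.10), SERPINB2 (0.10), CARD16 (0.11) and ENPP4 (0.12). CARD16, which encodes an inhibitor of caspase 1, was at 5.67, 4.66 and 5.43 FPKM in shNT and at 11.5, 12.0 and 11.9 FPKM in shGPR81. With 6 libraries in 2 groups, a like difference between the groups brings a gene close by itself.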

How the data were processed

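TruSeq stranded mRNA libraries of MDA-MB-231 cells (3 shNT, 3 shGPR81) were sequenced single-end (75 bases), and the authors mapped the reads with TopHat, Bowtie 2 and SAMtools; the submitters' processing notes also name Cuffnorm. The paper names the human genome hg19, and the deposited description a mouse build. The cells and symbols are human, so GRCh37 was used. The annotation and strand setting are not given in the sources used here. The authors deposited FPKM, 1 value per symbol and library. MIR6723 made up 28.1% to 36.2% of the column sums.

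Groups were compared in limma 3.58.1 (R 4.3.3; lmFit, then eBayes with a trend) on log2 of FPKM plus 0.1, without a block, at the thresholds of the paper. Whole reads were recovered at a tolerance of 0.0001. Replicate pairs differed by a chi-square of 3.79 to 5.63 per gene, where counting noise gives 1. The cytokine genes and lists were chosen with earlier results of these data known. Named genes were the 10 cytokine genes, HCAR1, every called gene and the 3 most abundant of each list, and the 5 genes most like CSF2 and IL7; all other named genes were chosen after their values were seen. Some genes that this rule takes are not reported here. Motifs and the 500 kb windows were chosen after the data were seen. GSDME was matched as an older symbol.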

Additional observations from a re-analysis of the deposited data

How the results depend on the processing

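Depth is not given with FPKM, and genes of a few reads, such as IL1A and IL2RB, are limited by it. CSF2 and IL7 kept their sign in all 13 alternatives that give a fold change, with log2 fold changes of -1.53 to -1.27 and 0.75 to 1.30, where a pseudocount of 1 FPKM gave the values nearest 0. The groups of both genes were apart in the contrast that chose them. Leaving out a library or changing the filter or pseudocount could therefore not turn the sign, and nothing is read from it. IL1A and IL1B changed sign with the library left out. All tested genes gave 228 lower and 137 higher calls. With each library left out in turn, lower calls ranged from 121 (without shNT replicate 2) to 256 and higher calls from 65 (without shGPR81 replicate 1) to 152, both highest without shNT replicate 1. The pseudocount of 1 FPKM gave 142 and 75. A test of whether the change exceeds 1.5-fold (treat in limma) gave 46 and 9. Of the listed genes, 2 were called lower and 1 higher; each fit that left out a library gave the same counts. Under treat, 1 was lower (IL1R1, which passed the filter through its shNT libraries alone) and 0 higher. With a filter of 1 FPKM, which leaves out IL1R1, 1 was lower, and 2 were higher (SOCS2 and SIGIRR). With no filter, 3 were lower, with IL2RB added, and 1 higher. The labels do not say whether libraries of the same number were pairs. Deviations of same-numbered libraries correlated at 0.12, 0.022 and 0.0058 across genes. The value for replicate 1 was the highest of any shNT and shGPR81 library, while shNT replicate 3 correlated best with shGPR81 replicate 2 (0.083). These correlations are too low to decide on pairing. With the replicate block, 197 genes were lower and 115 higher, and 2 and 1 of the listed genes. The cause of these differences was not tested.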
